A study of Mus musculus with 18 samples.

Results

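Dimethylation of histone H3 at lysine K79 (H3K79me2) was compared between Th2 cells and naive CD4 T cells of the mouse, gene by gene, over the 3 broad peak lists of each cell type. The members were fixed by the labels alone: 3 of the 6 H3K79me2 libraries carried the cell subtype Th2 and 3 carried naive. They were 6 of the 18 libraries of a study of the methyltransferase DOT1L in T helper cells, 9 of which had a peak list; the Th1 lists and the inputs were left out. Naive cells (CD44-, CD62L+) were sorted straight from the spleens of WT mice. Th2 cells began as enriched CD4 T cells and spent 4 days on plate-bound anti-CD3 with anti-CD28, in medium holding IL-4, IL-2 and an antibody against IFNg. They were then sorted from 4C13R reporter mice, in which AmCyan marks IL-4 and dsRed marks IL-13; the series text adds an IFNg-YFP reporter to these mice. All 6 libraries had the genotype label WT and used antibody ab3594. Age was not given in the sources used here. Culture, reporter strain and cell type changed together, so their parts in any difference cannot be told apart. The labels did not tell whether the 3 libraries of a cell type came from separate mice, so p-values measure only how far these libraries differ, and that difference may be technical.

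DOT1L places H3K79me2 on nucleosomes of transcribed genes, through complexes that also bind the elongation machinery of RNA polymerase II. The mark is typically densest from the start of a gene into the early part of its body and thins out towards the end. Th2 cells are the helper subset that makes IL-4, IL-5 and IL-13, under the transcription factors STAT6 and GATA3; naive cells are resting and have yet to choose such a fate. The value used here is the percent of a gene's annotated length, or the kb of it, that lay inside the merged peaks of a list. It measures how far the mark reached above the peak caller's threshold, not how much of it a nucleosome carried. In a bulk sample, fewer cells with the mark and less mark per cell cannot be told apart.

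Merged peaks covered 279.4, 275.6 and 284.9 Mb of the genome in the naive lists and 232.2, 238.9 and 249.9 Mb in the Th2 lists. Every naive list covered more than every Th2 list, with means of 280.0 ± 4.68 and 240.3 ± 8.93 Mb (SD, n = 3 each; 2-sided exact permutation p = 0.1, the smallest that 3 against 3 allow, and 0.1 adjusted over the 3 tests of whole lists). The difference lay inside protein-coding genes, where 245.5 ± 3.44 Mb were covered in naive and 206.5 ± 4.63 Mb in Th2 lists (exact permutation p = 0.1). Outside them the means were 34.5 ± 1.28 and 33.8 ± 4.47 Mb, less apart than the lists of a group (exact permutation p = 0.9). Th2 lists held more peaks, 48975 ± 2985 against 39524 ± 1310, but fewer peaks over 10 kb, 5773 ± 183 against 7072 ± 91.7 (exact permutation p = 0.1 for both). Where peaks under a −log10 q of 5 were dropped, Th2 lists held fewer peaks in all, by a mean difference of -683. The lists carried no read depth, and its part in the covered length was not tested. The Jaccard index of covered bases was 0.866 to 0.869 between naive lists, 0.812 to 0.819 between Th2 lists and 0.628 to 0.654 across.

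**Figure D1:**
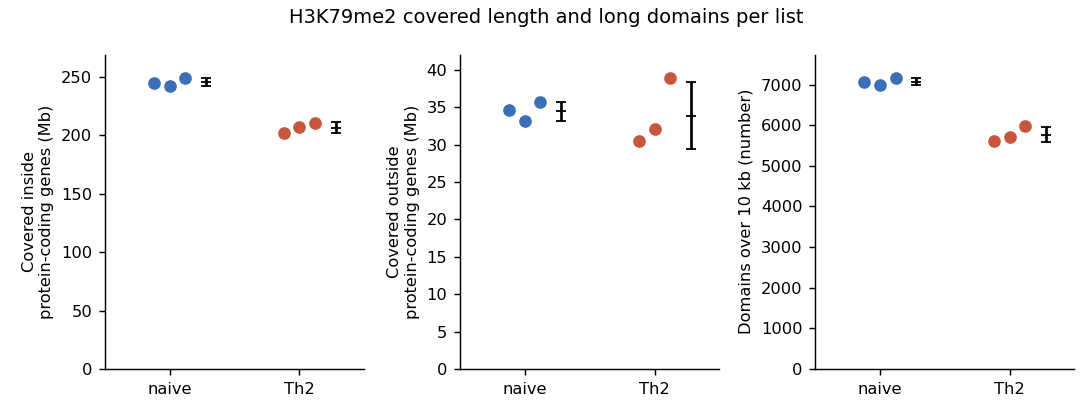
Sequence covered inside and outside protein-coding genes (Mb) and number of peaks over 10 kb, for each list (points, 3 naive in blue and 3 Th2 in red) with the mean and SD beside them (black). Inside genes the naive lists sit at 242.5 to 249.2 Mb and the Th2 lists at 201.7 to 211.0 Mb, whereas outside genes the Th2 lists span 30.5 to 38.9 Mb and overlap the naive ones.

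Of 21631 protein-coding genes, 9647 were at 0 and 639 at 100% in all 6 lists, and 11345 could be tested. A gene was called where the difference of the group means was at least 25 percentage points and limma's Benjamini-Hochberg adjusted p over all tested genes was under 0.05. By that rule 490 genes (4.32% of those tested) were covered further in Th2 cells and 1770 (15.6%) less far, with a median difference of -5.88 points. Of the called genes 21.7% were higher. Each count of list members below stands against these shares over all tested genes. Because the lists differed in covered length, the weakest peaks were also dropped from the longer lists until all 6 covered the length of the shortest, Th2 replicate 1. The lowest −log10 q kept was then 4.03, 3.96 and 4.22 in naive lists and 1.17, 1.38 and 1.91 in Th2 lists. Matched covered length thus sets more strictly filtered naive peaks against more loosely filtered Th2 peaks. At this matched covered length 689 of 10727 genes (6.42%) were higher and 1067 (9.95%) lower, 39.2% of calls were higher and the median difference was -2.43 points. Centring the lists on a common mean gave 737 higher and 1101 lower, or 40.1% higher. Calls named below were also made at matched covered length unless it is stated that they were not.

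The Th2 cytokine genes showed the plainest gain. Il4 and Il13, whose reporters defined the sort and which are therefore no independent result, were at 0% in all 3 naive lists and at 100% in all 3 Th2 lists. Il5, the eosinophil growth and survival factor encoded on the other side of Rad50, was not part of the sort; it was at 0% in every naive list and at 78.4, 100 and 100% in the Th2 lists. The groups did not overlap, and the difference of 92.8 points (SE 6.34) passed limma's test (adjusted p = 0.000156). Rad50, a gene of DNA break repair whose body holds the control region of the cytokine locus, was covered over 38.7, 41.0 and 42.4% of its 57.8 kb in naive lists and 98.6, 96.2 and 100% in Th2 lists (adjusted p = 1.11e-05). Kif3a, which encodes a kinesin motor subunit and lies beside Il4, went from 1.6 to 2.7% in naive lists to 94.8 to 96.4% in Th2 lists; it was named after its values were seen.

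Between the 2 ends of the locus, from the distal end of Il4 to the end of Il5, lie 112.6 kb. In the naive lists 24.4, 24.1 and 25.6 kb of that span were covered, in 8, 8 and 6 separate stretches. In the Th2 lists 110.9, 110.4 and 112.6 kb were covered, in 3, 3 and 1 stretches. The longest merged stretch that touched the span measured 12.0 to 13.0 kb in naive lists and 120.0, 120.6 and 169.1 kb in Th2 lists, so that the sequence between the genes was covered as well as the genes. Irf1, an interferon-response transcription factor farther along the chromosome, was at 100% in all 6 lists.

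**Figure D2:**
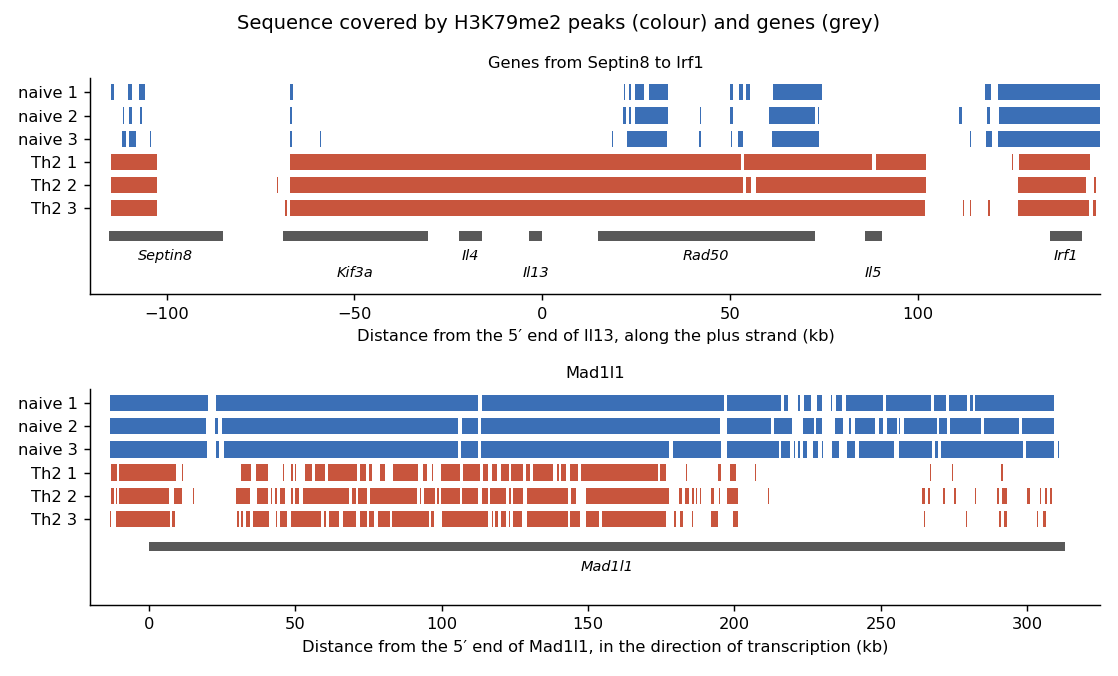
Sequence covered by merged peaks in each of the 3 naive (blue) and 3 Th2 (red) lists, with genes in grey, plotted by distance in kb. Top, the cytokine locus: naive lists show scattered stretches within Rad50, Th2 lists a domain from Kif3a past Il5, broken at most at a few points. Bottom, Mad1l1 from its 5′ end: naive lists are covered through most of the 312.9 kb, Th2 lists in broken stretches that nearly cease in the last part of the gene.

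The promoters of the 3 cytokine genes are shown because each lay wholly outside the peaks of every naive list and wholly inside those of every Th2 list. They run 5′ to 3′ from 250 bases before to 50 bases after the annotated start, from RefSeq on GRCm38.p6, the assembly of mm10. Capitals mark the matches, on either strand, of a pair of motifs that do not overlap each other here. For GATA factors only the string AGATAA, 1 form of their motif, was searched. For STAT factors only a palindrome of TTC, then any 4 bases, then the reverse complement of TTC was searched. Other forms of either motif were not searched or marked.
Il4 (chr11:53618616-53618915, minus strand): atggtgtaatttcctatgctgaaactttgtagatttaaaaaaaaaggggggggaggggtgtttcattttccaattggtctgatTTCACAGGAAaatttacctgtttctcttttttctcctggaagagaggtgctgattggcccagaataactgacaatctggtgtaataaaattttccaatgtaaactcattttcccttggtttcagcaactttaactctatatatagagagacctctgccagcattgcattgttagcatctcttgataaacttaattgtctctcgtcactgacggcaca
Il13 (chr11:53634653-53634952, minus strand): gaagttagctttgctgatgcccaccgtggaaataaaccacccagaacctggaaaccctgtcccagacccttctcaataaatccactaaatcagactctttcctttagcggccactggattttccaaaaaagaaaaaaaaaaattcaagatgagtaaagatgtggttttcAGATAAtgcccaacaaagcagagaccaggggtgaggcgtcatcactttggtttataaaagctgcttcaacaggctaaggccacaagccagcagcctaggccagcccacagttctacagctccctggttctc
Il5 (chr11:53720544-53720843, plus strand): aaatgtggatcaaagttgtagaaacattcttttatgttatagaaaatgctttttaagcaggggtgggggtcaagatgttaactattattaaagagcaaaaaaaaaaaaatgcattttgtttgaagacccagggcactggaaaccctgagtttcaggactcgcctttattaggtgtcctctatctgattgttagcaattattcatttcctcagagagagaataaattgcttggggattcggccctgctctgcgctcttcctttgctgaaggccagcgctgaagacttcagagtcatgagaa
The Il4 window held 1 match to the STAT string, the Il13 window 1 match to the GATA string and the Il5 window neither of these strings. A window without a match may still hold another form of a motif. Among 17274 promoters of the same length, 9.99% held the GATA and 6.45% the STAT string. Of the 384 promoters of genes called higher, 8.59% and 6.77% did, and of the 1443 of genes called lower, 6.31% and 5.96%. A match describes the letters only.

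In the whole list of Th2 genes, which includes Il4, Il13, Il5 and Rad50, 11 of 22 tested members rose and 1 fell. Over all tested genes 4.32% rose and 15.6% fell. The median difference was 25.5 points in the list and -5.88 points over all tested genes. Il4 and Il13 count among the 11 although their reporters defined the sort, and Il5 and Rad50 lie in the same locus. The members were also chosen with earlier results of these data known, so the count is no independent result. Of the members not tested, 6 were at 0 and 2 at 100% in all 6 lists. Gata3, the transcription factor that directs the lineage, was covered over 74.6, 76.7 and 74.7% in naive lists and 96.9, 96.6 and 100% in Th2 lists. The groups did not overlap (adjusted p = 9.68e-05), but a gene at 75.3% in naive lists had no room to rise by 25 points, so it was not called. Within its first 5 kb, 5.74, 5.02 and 0% were covered in naive lists and 100% in every Th2 list. Maf, a transcription factor that binds the Il4 promoter, was at 0, 33.3 and 0% and then at 100% in every Th2 list (adjusted p = 0.000774). Nfil3, a basic leucine zipper factor, rose from 2.6 to 9.3% to 100% in all 3 (adjusted p = 4.65e-06). Il10, the anti-inflammatory cytokine, and its neighbour Il24 went from 0% in every naive list to 100% in every Th2 list.

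Further Th2 genes were covered in part. Cyp11a1, the enzyme of the first step of steroid synthesis, rose from at most 1.6% to 72.2, 81.3 and 88.7% (36.7 points and not called at the stricter q, where peaks under a −log10 q of 5 were dropped). Plcd1, a phospholipase C, rose from 0% to 49.2, 51.7 and 45.1%, and Crlf2, a chain of the receptor for TSLP, from 0% to 27.9, 29.8 and 27.7% (at the stricter q 19.2 points and not called). Il17rb, a chain of the receptor for IL-25, was the member that fell: it was at 85.1, 64.1 and 54.2% in naive lists and at 0% in every Th2 list (adjusted p = 0.00102). Epas1, the hypoxia factor HIF-2α, was at 33.1, 43.9 and 44.2% in naive and 56.4, 58.8 and 65.2% in Th2 lists; the 19.7 points were below the 25 required, and the gene was called at matched covered length. Csf2, the cytokine GM-CSF, varied between Th2 lists (89.8, 29.7 and 45.7%) and overlapped the naive lists (31.3 to 51.7%); it was called at matched covered length, with a difference of 55.04 points. Il1rl1, the IL-33 receptor, stayed under 1% in all 6 lists, and Il3, Il9, Il31, Ptgdr2, Bhlhe41 and Areg were at 0% throughout. Ccr8, a chemokine receptor of Th2 cells, and Stat6, the signal transducer of IL-4, were already at 100% in every naive list.

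Some genes of the Th1 programme gained coverage in Th2 cells. Of 22 tested members 8 rose and 3 fell (over all tested genes 4.32% and 15.6%), with a median difference of 17.4 points. At matched covered length 7 of 21 rose and 2 fell (over all genes tested there 6.42% and 9.95%). Ccl3, Ccl5 and Twist1 were at 0% in all 6 lists. Tbx21, which encodes T-bet, the transcription factor of the opposing Th1 lineage, was at 0% in all 3 naive lists and at 100, 99.7 and 100% over its 17.3 kb in the Th2 lists. The groups were fully apart (difference 99.9 points, SE 1.17, adjusted p = 6.16e-07). Bhlhe40, a helix-loop-helix factor that promotes cytokine production, went from 0% to 99.9, 99.6 and 100%. Gzmb, the cytotoxic protease granzyme B, went from 0% to 100, 92.0 and 93.2%, and Havcr2, the inhibitory receptor TIM-3, from 0% to 77.4, 79.8 and 95.9%. Runx3, a partner of T-bet, rose from 38.6 to 42.0% to 79.3 to 94.6%. Both chains of the IL-12 receptor rose: Il12rb1 from 29.0 to 43.3% to 84.4 to 93.4%, and Il12rb2 from 27.8 to 31.5% to 68.3 to 74.2%.

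The cytokine that defines Th1 cells did not follow. Ifng was at 0% in every naive list and at 0, 0 and 8.31% in the Th2 lists (adjusted p = 0.362). The Th2 medium held an antibody against IFNg, and the series text gives these mice an IFNg-YFP reporter. The Ifng value may therefore not be independent of the culture or the sort, and the part of either was not tested. Eomes, a factor related to T-bet, reached 0, 3.01 and 14.5%, and Nkg7, a granule protein, 60.9, 0 and 100%, so that the Th2 lists differed among themselves. Cxcr3, the chemokine receptor of Th1 cells, was at 0% in naive and at 83.2, 25.3 and 77.1% in Th2 lists (adjusted p = 0.0195). That call was lost at matched covered length and without any of 5 lists: without Th2 replicate 1 the difference was 51.2 points (adjusted p = 0.0547), without Th2 replicate 3 it was 54.2 (0.0609), and without naive replicates 1, 2 and 3 it was 61.8 (0.0568, 0.0574 and 0.0576). Ifngr1, a receptor chain for interferon gamma, fell by 27.4 points, from 92.4 to 93.0% in naive lists to 57.9 to 69.3% in Th2 lists; without Th2 replicate 1 Ifngr1 differed by -23.8 points and was not called. Il18r1, the IL-18 receptor, fell from 28.6 to 36.9% to at most 3.69%, a call not made at matched covered length (-17.8 points).

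**Figure D3:**
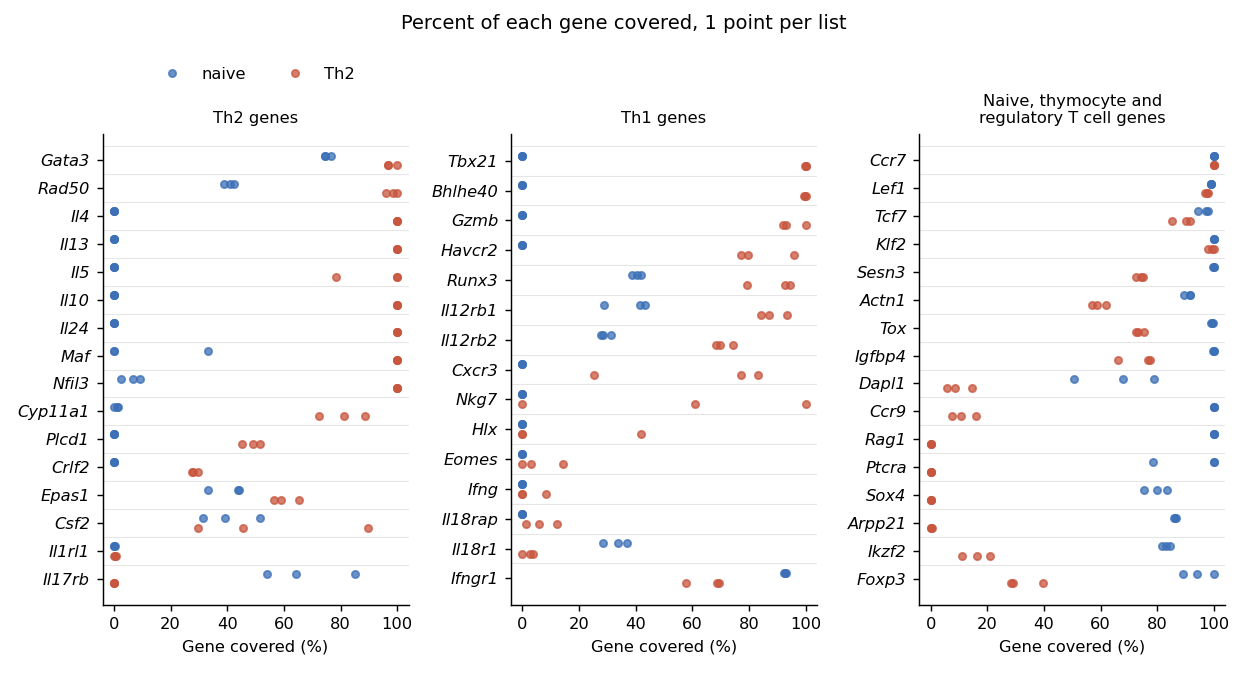
Percent of each gene covered in the 3 naive (blue) and 3 Th2 (red) lists, 1 point per list, for Th2 genes, Th1 genes, and genes of naive cells, thymocytes and regulatory T cells. Il4, Il13, Il10 and Tbx21 sit at 0% in naive and near 100% in Th2 lists, Rag1 the other way round, and Ccr7, Lef1 and Klf2 stay at 96.9% or above in both.

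Activation genes, switched on by the T cell receptor and its costimuli, gained coverage without exception among those called: 9 of 23 tested members rose and none fell (over all tested genes 4.32% and 15.6%), with a median difference of 19.99 points. All 9 were called at matched covered length, where 10 of 23 rose and none fell (over all genes tested there 6.42% and 9.95%). Il2ra and Il2rb, chains of the IL-2 receptor, rose from 37.8 to 39.5% to 79.04 to 80.7% and from 46.9 to 53.3% to 100% in every Th2 list. Batf3, an AP-1 family factor, went from 0% in all naive to 100% in all Th2 lists. Irf8, an interferon regulatory factor, rose from 22.4 to 37.0% to 81.5 to 88.5%, and Tnfrsf9, the costimulatory receptor 4-1BB, from 31.4 to 40.3% to 81.4 to 89.9%. Nr4a3, Egr2 and Egr3, transcription factors induced by receptor signals, rose by 35.3, 28.1 and 28.7 points, and Lag3, an inhibitory receptor, by 36.3 points. Without naive replicate 2 Egr3 differed by 22.0 points and was not called. Myc, Cd40lg, Tnfrsf4 and Tnfrsf18 were at 100% in all 6 lists, naive cells included. Cd44, by which naive cells were gated, was at 55.9 to 61.4% in naive and 70.5 to 74.8% in Th2 lists.

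Among genes of the naive and quiescent state, none of 19 tested members rose and 5 fell. Over all tested genes 15.6% fell. The median difference was -8.22 points in the list and -5.88 over all tested genes. Ccr7, the lymph node homing receptor, Il7r, the receptor of the survival factor IL-7, and Foxo1, the transcription factor of quiescence, were at 100% in all 6 lists. Lef1, a transcription factor of early and naive T cells, stayed between 96.9 and 98.9%, and its relative Tcf7 lay at 94.3 to 97.7% in naive and 85.3 to 91.5% in Th2 lists. The largest loss of the list, in percentage points, was that of Ccr9, the gut homing receptor, at 100% in every naive list and at 10.6, 16.1 and 7.49% in Th2 lists (adjusted p = 9.85e-06). Dapl1, a gene of resting T cells, fell from 50.7, 67.9 and 78.7% to 8.49, 14.7 and 5.85%. Actn1, the cytoskeletal α-actinin, Igfbp4, a binding protein of insulin-like growth factors, and Sesn3, a stress-induced sestrin, fell by 31.5, 26.5 and 26.0 points and stayed above 57% in every Th2 list. Without Th2 replicate 1 Igfbp4 differed by -22.8 points and was not called.

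Of 11 tested genes of T cell development in the thymus, 7 fell and none rose, with a median difference of -59.7 points (over all tested genes 15.6% fell, median -5.88). At matched covered length 7 of 10 fell (over all genes tested there 9.95%). Rag1, a subunit of the recombinase that assembles receptor genes, was at 100% of 11.3 kb in every naive list and at 0% in every Th2 list (adjusted p = 6.16e-07). Its neighbour and partner Rag2 had the same values. Ptcra, which encodes the pre-T cell receptor α chain, went from 100, 100 and 78.6% to 0% in all 3; at the stricter q it differed by -22.4 points and was not called. Sox4, a transcription factor of progenitors, went from 75.4 to 83.5% to 0% in all 3, and Arpp21, the host gene of a microRNA, from 86.0 to 86.7% of its 171.2 kb to at most 0.643%. Dntt, the template-independent DNA polymerase of receptor joints, fell by 59.7 points, and Tox, a factor of CD4 lineage commitment, by 25.7 points to 72.4 to 75.2%. Themis and Runx1, used in thymocytes and in mature T cells, lay at 89.7% or above in all 6 lists.

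The Rag1 and Ptcra promoters are shown as the reverse case, in the same frame and from the same source. The Rag1 window was wholly covered in every naive list, the Ptcra window over 39.7, 100 and 100%, and both were bare in every Th2 list. Neither motif string occurred in either window, so there are no capitals, and other forms of the motifs were not searched.
Rag1 (chr2:101649483-101649782, minus strand): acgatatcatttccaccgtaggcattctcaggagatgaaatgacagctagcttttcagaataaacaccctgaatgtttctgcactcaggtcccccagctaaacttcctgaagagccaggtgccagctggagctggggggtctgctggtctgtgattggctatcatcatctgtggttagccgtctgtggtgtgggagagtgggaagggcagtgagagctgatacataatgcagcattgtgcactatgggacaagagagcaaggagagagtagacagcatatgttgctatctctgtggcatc
Ptcra (chr17:46763663-46763962, minus strand): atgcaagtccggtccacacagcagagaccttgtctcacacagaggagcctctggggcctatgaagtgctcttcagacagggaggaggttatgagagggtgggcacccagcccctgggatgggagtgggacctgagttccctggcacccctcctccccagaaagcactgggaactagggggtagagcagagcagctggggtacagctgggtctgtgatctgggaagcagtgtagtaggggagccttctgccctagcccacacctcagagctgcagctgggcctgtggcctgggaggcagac

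Markers of CD8 T cells moved in the same direction as the thymocyte genes. Cd8a was at 100% in every naive list and at 6.997, 14.8 and 0% in Th2 lists, and Cd8b1 at 100% and at 17.8, 24.3 and 27.8%. Both of the 2 listed CD8 markers fell, and their summed coverage was 200 points in each naive list and 24.8 to 39.2 points in Th2 lists. Of 8 NK cell markers 2 fell: Prf1, which encodes perforin, from 75.9 to 77.3% to 0, 6.13 and 16.9%, and Gzma, a granzyme, from 30.7 to 52.3% to 0, 0 and 19.7%; Gzma could not be tested at matched covered length. The sum of the 8 was 248 to 274 points in naive and 105 to 132 points in Th2 lists. Ncr1, Klrb1c and Klra8 were at 0% in all 6. The other listed members, Klrk1, Klrd1 and Tyrobp, made up the rest of the sum in every list and were not called. Cd4 itself lay at 82.5 to 85.0% in naive and 80.02 to 83.8% in Th2 lists, and the 10 T lineage markers summed to 938 to 961 and 904 to 914 points. The part of CD8 or NK cells in the results was not tested. For B cells 5 of 8 markers were at 0% in all lists, with Cd79a at 100% throughout; for myeloid cells 7 of 8, for mast cells and basophils 6 of 8, for eosinophils 4 of 5, for erythroid cells 3 of 5 and for non-haematopoietic cells 8 of 10 were. In these lists 1 B cell marker fell, with sums of 136 to 184 points in naive and 100 to 100.1 points in Th2 lists. Among the erythroid markers 1 rose, with sums of 0 in every naive list and 26.8 to 55.5 points in Th2 lists.

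Genes of other helper lineages parted by member. Of 13 tested 3 rose and 4 fell (over all tested genes 4.32% and 15.6%), with a median difference of -0.0405 points. Foxp3, the transcription factor of regulatory T cells, was at 100, 89.2 and 94.0% in naive lists and 29.2, 39.7 and 28.3% in Th2 lists (adjusted p = 0.000167). Ikzf2, the regulatory T cell factor Helios, fell from 127.3, 129.8 and 131.8 kb of its 156.1 kb to 32.8, 17.4 and 25.5 kb. Every Th2 list was below every naive list at both genes. Lrrc32, which displays latent TGF-β on activated regulatory cells, went the other way, from 1.98 to 7.58% to 82.3 to 91.8%. Of the follicular helper genes, Cxcr5 fell from 100% to 44.5, 44.4 and 78.3%, Bcl6 fell by 32.6 points (not called at matched covered length, -26.3 points), and Il21 rose from 36.1 to 47.9% to 100% in every Th2 list. Tigit, an inhibitory receptor, rose by 41.8 points. Il17a, Il17f, Il22 and Ccr6, which mark Th17 cells, were at 0% in all 6 lists.

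Of 19 tested members of the T cell receptor pathway, 1 fell and none rose (over all tested genes 15.6% and 4.32%). Lat and Cd3e were at 100% in all lists. Of 19 tested cytokine signalling genes 2 rose and 2 fell, against 4.32% and 15.6% over all tested genes. Jak2, a receptor kinase, rose by 27.0 points, and Socs2, an inhibitor of such kinases, from 0% to 44.5, 41.1 and 52.6%. Ifnar2, a chain of the type I interferon receptor, fell from 96.7 to 100% to 57.0 to 64.8%, and Tyk2, the kinase bound to its partner chain, from 62.3 to 76.4% to 12.9 to 14.6% (not called at matched covered length, -18.1 points). Of 12 tested homing genes 2 rose and 4 fell (over all tested genes 4.32% and 15.6%), Cxcr5 among those that fell. Ccr2, a receptor for inflammatory chemokines, rose from 0% to 50.3, 82.3 and 100%. The integrin chains Itga4, Itgb7 and Itga6 fell by 47.7, 29.5 and 44.6 points; the first and second form the gut homing integrin.

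Metabolic genes that were called were mostly higher. In glycolysis 4 of 20 tested members rose and none fell, with a median difference of 12.6 points. Over all tested genes 4.32% rose and 15.6% fell, with a median of -5.88 points. Hk2, the inducible hexokinase, was at 4.37, 5.23 and 1.96% in naive and 86.2, 85.8 and 86.6% in Th2 lists (adjusted p = 2.47e-06), the widest gain of the list. Hif1a, the hypoxia factor that activates glycolytic genes, rose from 66.3 to 69.0% to 100% in every Th2 list, Pgk1, a kinase of the pathway, by 36.3 points and Slc16a3, a lactate exporter, by 59.2 points. In amino acid and one-carbon metabolism 3 of 13 rose and none fell: Asns, asparagine synthetase, from 0% to 40.9, 40.4 and 38.2%, Psat1, of serine synthesis, by 26.4 points and Shmt2, of the mitochondrial folate cycle, by 38.8 points. In sterol and fatty acid synthesis 4 of 19 rose and 1 fell. Sqle, Lss and Fdft1, enzymes between farnesyl diphosphate and lanosterol, rose by 33.6, 45.01 and 25.8 points. Acly, which makes cytosolic acetyl-CoA, fell by 34.5 points, but by 4.78 points and without a call at matched covered length. Psat1 without naive replicate 1 (24.6 points) and Fdft1 without Th2 replicate 2 (24.96) or naive replicate 2 (22.8) were not called.

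Ribosome and proliferation genes showed no common direction with all peaks kept. Of 19 tested ribosome biogenesis genes 1 rose and 4 fell, near the 4.32% and 15.6% over all tested genes. At matched covered length 1 of 19 rose and 1 fell (over all genes tested there 6.42% and 9.95%). Nop56, of the small nucleolar particles, rose by 26.3 points, but by 23.6 without naive replicate 2 and 23.0 without naive replicate 3, where it was not called. Wdr12, an assembly factor of the large subunit, fell by 44.5 points. Nop14, Polr1a and Rrn3, which serve the small subunit and RNA polymerase I, fell by 53.5, 41.8 and 34.6 points, and none of these 3 was called at matched covered length (0.510, -7.03 and -24.6 points). Of 18 tested cell cycle genes none rose and 1 fell, Foxm1, a factor of mitotic genes, by 35.8 points. At matched covered length 4 of 18 rose and 1 fell, against 6.42% and 9.95% over all genes tested there. Among the 4 were Mcm5, a subunit of the replicative helicase, and Cdk6, a kinase of early cell cycle entry. Housekeeping genes had no call among 8 tested.

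Interferon response genes fell where called, the commoner direction over all tested genes too (15.6% against 4.32%). Of 14 tested 5 fell and none rose, with a median difference of -22.3 points against -5.88. At matched covered length 5 of 14 fell and 1 rose (over all genes tested there 9.95% and 6.42%). Irf7, which amplifies the type I response, was at 100% in every naive list and at 0, 13.6 and 25.5% in Th2 lists (adjusted p = 0.000207). Isg20, an exonuclease, fell from 80.8 to 92.3% to 14.5 to 36.4%, Oasl1, a regulator of Irf7 translation, from 42.1 to 51.6% to 0% in all 3, and Ifit1, which binds viral RNA, by 47.5 points. Usp18, which removes ISG15, fell by 25.6 points, and by 22.0 without Th2 replicate 3, where it was not called. Of 13 tested genes of DOT1L and its partners 3 fell and none rose, near the 15.6% and 4.32% over all tested genes. Dot1l was at 100% in every naive list and 97.9, 91.6 and 94.7% in Th2 lists. Kmt2a, Aff1 and Eaf1, of the MLL and elongation complexes, fell by 33.5, 33.0 and 26.7 points; Aff1 was not called at matched covered length (-14.5 points).

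**Figure D4:**
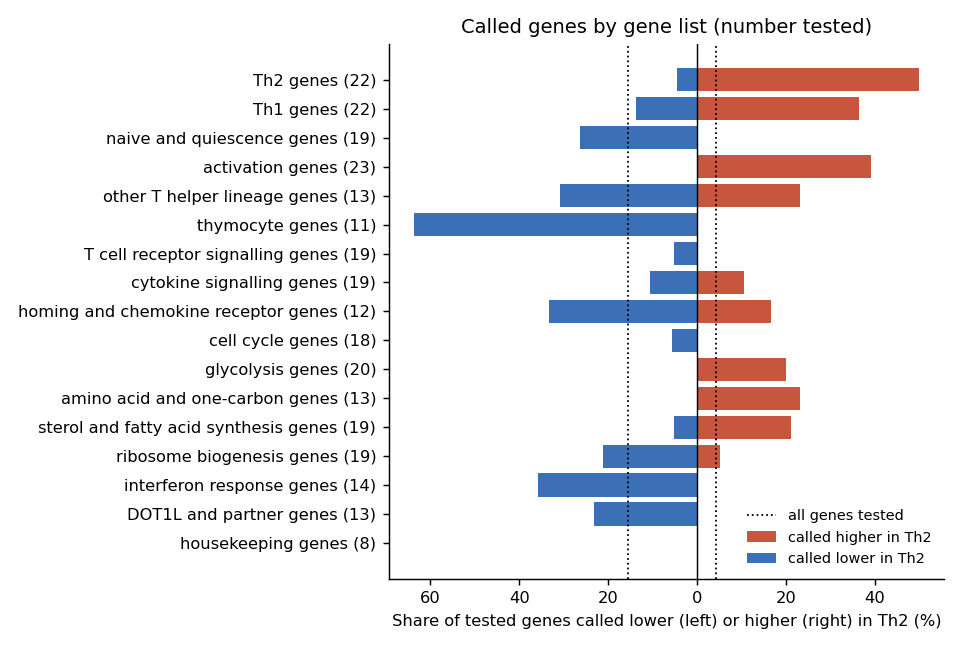
Share of the tested genes of each list called higher (red, right) or lower (blue, left) in Th2 than in naive lists, with the number tested in parentheses and dotted lines at the shares over all tested genes (4.32% and 15.6%). The bars of Th2, Th1 and activation genes reach furthest to the right and that of thymocyte genes furthest to the left. The bar of Th2 genes includes Il4 and Il13, whose reporters defined the sort.

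The largest gains in covered length came in long genes, some bare and some partly covered in naive cells. Efna5, an ephrin ligand, was at 0 kb in every naive list and at 259.3, 259.6 and 262.5 of its 278.4 kb in the Th2 lists (adjusted p = 8.79e-07). Kcnq5, a potassium channel, went from 27.4, 20.9 and 26.2 kb to 332.0, 311.1 and 320.9 kb, the largest gain of all called genes; at the stricter q it differed by 14.6 points and was not called. Tanc2, a scaffold protein, went from at most 0.649 kb to 205.9 to 209.6 kb, and Alcam, an adhesion molecule and ligand of CD6, from 0 kb to 142.3 to 150.5 kb. Atxn1, a transcriptional corepressor, was covered over 32.4 to 37.7% in naive and 94.1 to 95.2% in Th2 lists. Rabgap1l, Setbp1, Farp1, Nfia and Enox2 completed the 10 largest gains, each by 153.8 to 217.8 kb. At the stricter q Enox2 (9.92 points), Nfia (3.202) and Rabgap1l (-0.797) were not called either, nor was Nfia without Th2 replicate 3 (23.0).

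Losses of the same size came in genes that naive cells covered over long stretches. Slc9a9, an endosomal sodium and proton exchanger, went from 420.6, 410.2 and 425.8 kb to 58.2, 74.3 and 87.7 kb. Zbtb20, a zinc finger repressor, Itpr2, a calcium release channel, and Stx8, a protein of vesicle fusion, differed by -312.7, -174.2 and -150.9 kb. None of these 4 was called at matched covered length, where they differed by -22.8, -22.5, -14.3 and -4.59 points. Ttc28, Sntb1, Fry, Xylt1, Arpp21 and Mad1l1, whose product acts in the spindle checkpoint, were called there too. Mad1l1 was covered over 285.5, 279.1 and 280.8 kb in naive and 119.2, 147.7 and 135.3 kb in Th2 lists, while its first 5 kb were covered in full in all 6. In the last 25% of the gene the mean coverage was 84.4% in naive and 5.3% in Th2 lists, against 94.9% and 53.3% in the first 25%.

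Most long genes called lower kept coverage at their start. The shares of called genes that follow were not set against those of uncalled genes, so they describe the called genes only. Among 1159 genes of at least 10 kb that were called lower and had a known strand, 655 (56.5%) kept at least 80% of their first 5 kb covered in both cell types, and 74 (6.38%) went from at least 50% to under 10% of it. Among 228 such genes called higher, 100 (43.9%) went from under 10% to at least 50% of the first 5 kb, and 46 (20.2%) were at 80% or more in both. With calls at matched covered length, 354 of 641 lower genes (55.2%) kept the start, and of 356 higher genes 99 (27.8%) gained it and 121 (34.0%) had it in both. Sesn3 lost 26.0 points of its body with at least 96.4% of its first 5 kb covered in each list, and Il2ra gained 41.3 points with a difference of 1.43 points there. Efna5, Hk2 and Tbx21 had at most 9.28% of the first 5 kb covered in any naive list and 100% in every Th2 list. Tested over the first 5 kb alone, 455 of 6673 genes (6.82%) were higher and 868 (13%) lower. In genes shorter than 5 kb that window was the whole gene, so there it repeated the value of the whole gene.

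Covered length also differed in genes marked in both cell types, meaning at least 50% covered in at least 2 of the 3 lists of each. Of 7160 genes marked in naive and 5806 in Th2 cells, 5437 were marked in both, 1723 in naive cells only and 369 in Th2 cells only. Their median covered length was 13.8, 13.9 and 14.0 kb in naive lists and 12.3, 12.8 and 12.7 kb in Th2 lists. All 3 Th2 lists lay below the naive lists, by 1.28 kb on average (exact permutation p = 0.1; adjusted 0.1). The difference was -0.185 kb among genes at least 80% covered in both, and -1.12 kb at matched covered length, an alternative chosen after seeing the data. Along 2881 of these genes of at least 10 kb with a known strand, the first 5% of the length was covered at 89.1 ± 0.364% in naive and 86.8 ± 1.06% in Th2 lists, and the stretch from 45 to 50% at 95.9 ± 0.302% and 90.1 ± 0.611%. From 70 to 75% the values were 79.6 ± 1.20% and 63.1 ± 1.62%, and in the last 5% 36.9 ± 0.952% and 28.3 ± 1.35% (SD, n = 3 lists). At matched covered length the genes marked in both were another set, of which 2654 had this length and a known strand. Along these, the stretch from 70 to 75% was covered at 74.7% in naive and 63.1% in Th2 lists.

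**Figure D5:**
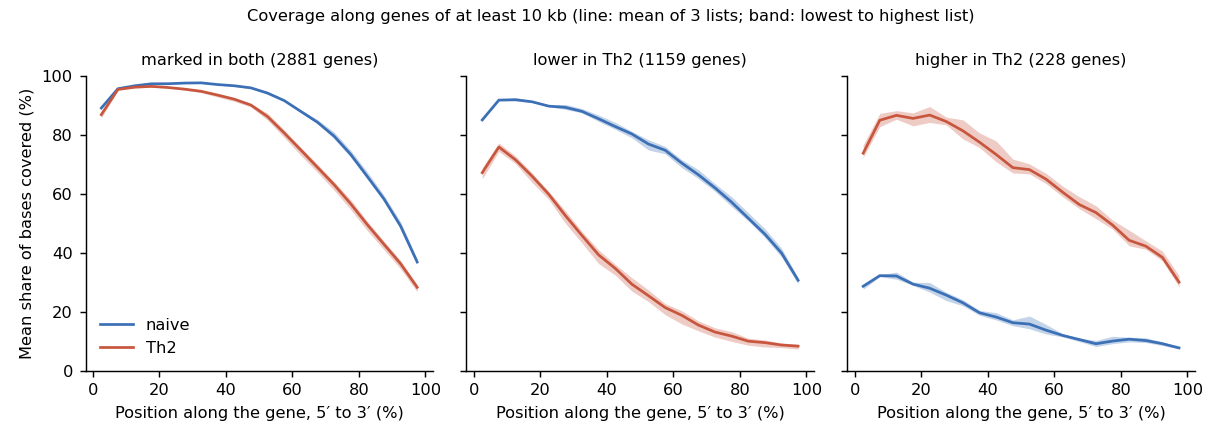
Mean share of bases covered (%) against position along the gene from 5′ to 3′ (20 bins, in % of length), for genes of at least 10 kb with a known strand that were marked in both cell types, called lower or called higher. Lines are means over the 3 naive (blue) or Th2 (red) lists and bands span the lowest to the highest list. In genes called lower, Th2 coverage drops to 29.4% by the middle while naive coverage is still 80.3%; in genes marked in both, the lines part in the second part of the gene.

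Complete switches were few and mostly short. At most 5% in every naive and at least 95% in every Th2 list were reached by 24 genes, with a median length of 4.97 kb, and the reverse by 10 genes, with 2.78 kb; these are chosen by their values and described without a test. The longest that switched on included, besides Il4, Tbx21, Batf3 and Bhlhe40, the genes Prelid2, of a family of mitochondrial lipid transfer proteins, Adora2b, an adenosine receptor, Scd1, the stearoyl-CoA desaturase, Cdkn1a, the cell cycle inhibitor p21, and D630039A03Rik. The genes that switched off, besides Rag1 and Rag2, were Aqp11, a water channel, Tubb2b, a tubulin, Amigo2, an adhesion protein, B3gnt8, a glycosyltransferase, Ly6d, a surface antigen of early lymphoid cells, G0s2, an inhibitor of lipolysis, Gm51581 and H3f4. At matched covered length all 24 that switched on were still called higher and 7 of the 10 that switched off were still called lower; Tubb2b and H3f4 were not called and B3gnt8 could not be tested. At the promoter, 15.6% of genes called higher were at least 50% covered in naive and 49.5% in Th2 cells, and 66.4% and 35.5% of genes called lower. Over all 17274 promoters the shares were 31.3% and 24.9%.

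Among the genes named, Il12rb2, Foxp3, Cxcr5, Tigit, Rag2, Itga4, Foxm1, Slc16a3, Shmt2, Fdft1, Nop56, Wdr12, Ifit1, Rabgap1l, Zbtb20, Amigo2, Gm51581, H3f4, Ptgdr2, Stat6, Tcf7, Tnfrsf4 and Gzma overlap another protein-coding gene. A peak there cannot be given to either gene, so their values are uncertain.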

How the data were processed

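The tools named in the submitters' processing notes were MACS2, SAMtools, Picard and Bowtie2, with mm10; versions, settings and the use of inputs are not given in the sources used here. The authors deposited 1 broad peak list per H3K79me2 library. The deposited lists had no header line and were read as the broadPeak format: a deposited display score, a deposited fold enrichment (ratio) and deposited −log10 p and −log10 q values per peak, which served only to filter peaks within a list. Peaks of chromosomes 1 to 19 and X were merged and intersected with protein-coding genes of RefSeq on GRCm38.p6 (1-based); 17274 genes (79.9%) had a strand and 3841 (17.8%) overlapped another.

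Percent covered was fitted with limma 3.58.1 in R 4.3.3 (lmFit, eBayes with trend, 6 lists, 4 residual degrees of freedom). Genes without spread between the lists of a group owe their p to variance borrowed from other genes. Tested on simulated data for this comparison (9973 genes), 43 of 50 genes raised and 42 of 50 lowered by 30 points were recovered. At 50 points 49 of 50 each were recovered, with 1 false call in all. The noise of all simulated lists was that of the naive lists, and the other genes were not moved. The real Th2 lists differed more among themselves and coverage shifted as a whole, so these rates may be too favourable. No 2 lists shared more than 1 identical peak, so no list was a copy of another. Each list was counted as a sample, though this cannot show that they came from separate mice or cultures. Depth is unknown, so no counting interval was set.

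Named genes are all called members of 17 lists (329 of 330 genes matched), the 10 largest gains and losses in kb, and the 10 longest complete switches each way; members and lists were chosen with earlier results of these data known. A few genes that this rule names are not reported here. The Th1 lists were not used here. The alternatives were other peak filters, merging gaps, gene windows, thresholds and scalings, leaving out each list, and a replicate block.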

Additional observations from a re-analysis of the deposited data

How the results depend on the processing

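The values carry limits of the files: lists hold peaks past a threshold, without depth, and coverage saturates at 0 and 100%. Genes covered higher in Th2 cells numbered 460 to 498 when each list was left out in turn (490 with all), and genes covered lower 1649 to 1817 (1770). The covered length then differed by -44.4 to -35.6 Mb, the number of peaks by 8012 to 10992 and the median covered kb in genes marked in both by -1.37 to -1.14. With centred lists 737 genes were higher and 1101 lower, and at matched covered length 689 and 1067. Without a minimum difference 1375 were higher and 5495 lower, with a minimum of 50 points 206 and 341, and over the first 5 kb 455 and 868. Where peaks under a −log10 q of 5 were dropped, the difference in number of peaks turned to -683 (exact permutation p = 0.1), while 414 genes were higher and 1680 lower. The cause of these shifts was not tested. Fewer genes were tested over the first 5 kb (6673) than over whole genes (11345).

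Of 119 named calls, 103 of 118 with a value held at matched covered length, 107 with centred lists, 92 of 116 at a −log10 q of at least 5, 54 of 79 over the first 5 kb, 115 with 2 kb added at both ends, 113 with gaps of 1 kb merged and 65 with a minimum of 50 points. For named genes shorter than 5 kb, such as Il13, Il5 and Gzmb, the first 5 kb was the whole gene. Calls that held there are no separate check for such genes. Direction reversed at 4: Bcl6 (9.14 points) and Acly (0.867) over the first 5 kb, Nop14 at matched covered length (0.510) and Rabgap1l at the stricter q (-0.797). With centred lists the lost calls included Il18r1, Ifngr1, Igfbp4, Actn1, Sesn3, Bcl6, Tox, Itgb7, Usp18 and Eaf1. At the stricter q they included Crlf2, Cyp11a1, Ptcra, Jak2, Psat1, Kcnq5, Nfia, Enox2, Fry and G0s2. Leaving out 1 list ended the call of 9 named genes, each given above.

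The replicate block gave 485 higher and 1753 lower genes and changed no call of a named gene. Deviations of lists with the same replicate number were not correlated (r = -0.0117, -0.0186 and -0.00975), so the numbers were taken not to pair the samples.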

Other observations

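Called genes also lay side by side in places, which the lists did not cover; the runs below were chosen after their values were seen and carry no test of their own. In 6 places at least 3 neighbouring protein-coding genes were all called higher (22 genes), and in 51 places at least 3 were all called lower (163 genes). These are parts of the 490 genes called higher and 1770 called lower, 4.32% and 15.6% of all tested genes. Whether runs were more frequent than such shares alone would give was not tested. Neighbours that overlap share peaks, so some runs count the same peaks repeatedly. The longest higher run was that of Septin8, Kif3a, Il4, Il13, Rad50 and Il5. The next, on chromosome 3, joined the cytokine gene Il21 with Cetn4, a centrin, Bbs12, a chaperonin-like gene of the primary cilium, and Fgf2, a growth factor that overlaps another gene. Cetn4 went from 0% in every naive list to 100% in every Th2 list, Bbs12 from 62.9 to 75.1% to 100%, and Fgf2 from 18.1 to 30.2% to 92.5 to 94.1%. The longest lower run was of interferon-inducible genes on chromosome 1 that encode sensors of the IFI200 family: Ifi206, Ifi214, Ifi213, Ifi209 and Ifi208. They were covered over 89.5 to 100% in naive lists and 13.1 to 48.5% in Th2 lists. Cd8b1 and Cd8a formed part of another lower run.

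Shares of called genes varied with gene length. Among 1062 tested genes of up to 5 kb, 11.6% were called higher and 11.4% lower. From 5 to 20 kb they were 4.52% and 17.1% of 3740 genes, from 20 to 50 kb 2.65% and 18.1% of 3395, and from 50 to 100 kb 2.89% and 13.8% of 1730. From 100 to 200 kb they were 3.92% and 11.2% of 944 genes, and over 200 kb 4.43% and 10.1% of 474. At matched covered length more genes were higher than lower in the shortest class (13.5% and 8.15%), from 100 to 200 kb (7.05% and 5.23%) and over 200 kb (8.70% and 5.07%), and fewer in the classes between (6.50% and 13.8%, 4.73% and 10.3%, 4.43% and 5.65%).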
